A study of Ovis aries with 32 samples.

Results

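Interferons are secreted proteins that a cell releases when it senses viral nucleic acid. They bind receptors on the same and on neighbouring cells, and the JAK kinases, STAT2 and IRF9 then help to switch on a shared set of antiviral genes, the interferon response genes. Stromal cells such as preadipocytes carry the receptors, keep a low basal level of many of these genes, and can raise them steeply.

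The interferon response genes described here were taken by name from a list of 39 symbols. Of these, 28 symbols had rows in the deposited table, and they corresponded to 29 gene IDs and 45 transcripts, because B2M had a pair of gene IDs. All 29 genes were measured at 10 or more normalized reads in at least 4 of the 32 libraries, as were 12737 of the 21271 genes in the table. The remaining 11 symbols (IFIT1, OAS1, RSAD2, ISG20, BST2, IFI44L, USP18, HERC6, DTX3L, PARP14 and PSMB9) had no row under these names and were not analysed here. The genes were grouped by role into 6 signalling and transcription factor genes, 4 RNA sensor genes including the kinase PKR, 11 antiviral effector genes, 4 genes of ISG15 conjugation and ubiquitin ligation, and 4 genes of antigen processing.

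The cells were perirenal preadipocytes of near-term fetal sheep from singleton pregnancies, before and after differentiation to mature adipocytes in culture. Fetal growth restriction (FGR) was produced by keeping the pregnant ewes in the heat, and control ewes were kept at a neutral temperature and fed to the intake of the heated ewes. Preadipocytes came from control males (MC), control females (FC), growth-restricted males (MFGR) and growth-restricted females (FFGR), and the same names with a D (MCD, FCD, MFGRD, FFGRD) stand for the differentiated cells. Each of the 8 groups had 4 libraries, and since the labels do not tie a library to an animal, p-values measure the spread between these libraries only.

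The adipocyte marker list rose in the differentiated cells, with all 9 genes higher and a median log2 fold change of 5.12. Its summed level ran from 88.3 to 2043 normalized reads in the preadipocytes and from 415.5 to 185524 in the adipocytes, where 1 FCD library lay at the low end. No gene of the lymphocyte and dendritic cell list passed the filter, the list summed to between 0 and 75.8 normalized reads per library, and CD4 was at 0 in all 32 libraries. The macrophage list summed to between 90.5 and 1164 normalized reads, and of its 3 genes tested, 2 were higher and 1 was lower in adipocytes. Of 7 stromal or preadipocyte genes tested, 3 were lower and 1 was higher in adipocytes (median log2 fold change -0.61), and of 4 endothelial genes 1 was lower (median -0.81). The mitochondrial share was 1.29% to 3.26% in the preadipocytes and 1.83% to 5.94% in the adipocytes. The part of these differences in the results below was not tested. The sum of normalized reads per library was 9524562 to 21218438 (median 12588086). In 9 libraries the slope of log2 value on log2 genomic span was under 0.1, against a highest slope of 0.273. Genes with a long genomic span were thus lower there, relative to short ones, than in the other libraries. These 9 libraries were replicates 2 and 4 of MCD, replicate 2 of FC, FCD and FFGR, replicate 1 of MFGR and MFGRD, and replicate 3 of FFGR and FFGRD.

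Before any comparison between groups, 2 preadipocyte libraries stood apart in the interferon response genes. In MFGR replicate 4, 26 of the 29 genes were at their highest among the 4 MFGR libraries, against 22% of all genes tested. The median gene of the 29 was 1.89 log2 units above the median of the other 3 MFGR libraries, whereas the median over all genes tested was at -0.001. In MC replicate 4, 22 of the 29 genes were at their highest of the 4 MC libraries, against 33.1% of all genes, and the median was 1.11 log2 units above the other 3. No other library exceeded 0.77, the value of FFGR replicate 3, and the lowest was MFGR replicate 3 at -1.07.

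**Figure D1:**
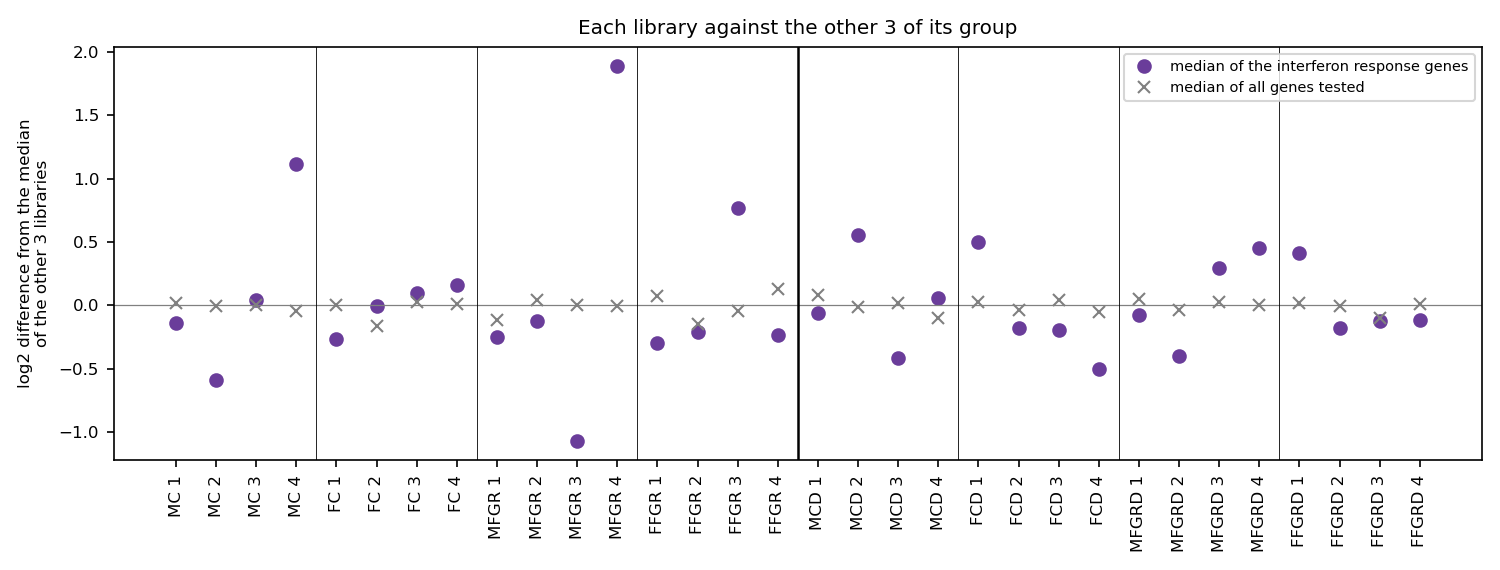
Median over the 29 interferon response genes, and over all genes tested, of each library's log2 value minus the median of the other 3 libraries of its group (log2 units, 32 libraries in 8 groups). MFGR replicate 4 lies at 1.89 and MC replicate 4 at 1.11 for the interferon response genes, while the medians over all genes lie close to 0.

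Antiviral effectors and ISG15 stood furthest apart in MFGR replicate 4. MX2, a dynamin-like GTPase that blocks viral nuclear entry, was at 17.4, 45.7, 14.9 and 10271 normalized reads in MFGR replicates 1 to 4. MX1, the related GTPase that traps viral nucleoproteins, was at 563, 781.9, 457.4 and 26050. ISG15, a ubiquitin-like protein that is attached to other proteins, was at 20.7, 6.26, 3.53 and 688. In each case the first 3 libraries lay within the range of the other preadipocyte groups, and the fourth was over 4 log2 units above the highest of them. When all 12737 genes were ordered by how far MFGR replicate 4 exceeded the highest of the other 3 libraries, MX2 was at rank 1, MX1 at rank 7, ISG15 at rank 8 and IFI44 at rank 10. IFIT2, SAMD9, IFIT3 and CMPK2 followed within the first 30 ranks, and 13 of the 29 genes were within the first 100. A gap of over 1 log2 unit was found for 18 of the 29 genes and for 2.79% of all genes tested.

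Further genes of the pathway were high in the same library. The guanylate binding protein gene GBP5 was at 551.7 normalized reads against at most 31.4 in the other 3 MFGR libraries, and EPSTI1 was at 1564 against 154. The kinase and receptor genes upstream differed less. JAK1 was at 3496 against 3512, IFNAR1 at 828 against 1153 and IFNAR2 at 810.7 against 738. Of 14 interferon ligand symbols, 3 had rows (IFNE, IFNK and IFNG), none passed the filter, and the highest value in any library was 8.93 normalized reads.

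MFGR replicate 4 was not at the end of the range of the 32 libraries in sum of normalized reads, mitochondrial share or span slope. Its sequencing depth is not given by these scaled values. Its sum of normalized reads was 12117627, its mitochondrial share 2.75% (range over 32 libraries 1.29% to 5.94%) and its span slope 0.263. That mitochondrial share was the highest of the 4 MFGR libraries, against 1.74% to 2.29% in the other 3. Among the preadipocyte libraries alone the share ran from 1.29% to 3.26%, the highest being FFGR replicate 3. The macrophage list summed to 406.6 normalized reads there, the highest of the 4 MFGR libraries, with 8 of the 32 libraries higher. The lymphocyte and dendritic cell list summed to 3.12 there, the lowest of the 4, with 18 of the 32 higher. The endothelial list summed to 91.4 there, with 2 libraries higher (range over 32 libraries 5.84 to 288.9), and ITGAM of the macrophage list was at 49.96 against at most 4.19 in the other 3 MFGR libraries. In MC replicate 4 the macrophage list and the lymphocyte and dendritic cell list summed to 229 and 9.89. Both were the highest of the 4 MC libraries. The mitochondrial share of MC replicate 4 was 2.82% against 1.33% to 1.79% in the other 3 MC libraries, and its span slope was 0.152 against 0.231 to 0.258. Its endothelial list summed to 11.52, the lowest of the 4. What set both libraries apart was not tested. The counts of genes called are therefore also given without them, a choice made after seeing the data.

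The same genes led in MC replicate 4 at lower levels. MX2 was at 12.2, 17.3, 31.7 and 831 normalized reads in MC replicates 1 to 4, MX1 at 795.5, 301.8, 773.6 and 7263, and IFIT3 at 97.8, 94.9, 150.7 and 829.9. Only the fourth library stood out in each. The next highest values of MX1 were 4366 normalized reads in MCD replicate 2 and 2010 in FFGR replicate 3, and ISG15 was at 219 and 131.5 in the same libraries, both of which were among the 9 with a low span slope.

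**Figure D2:**
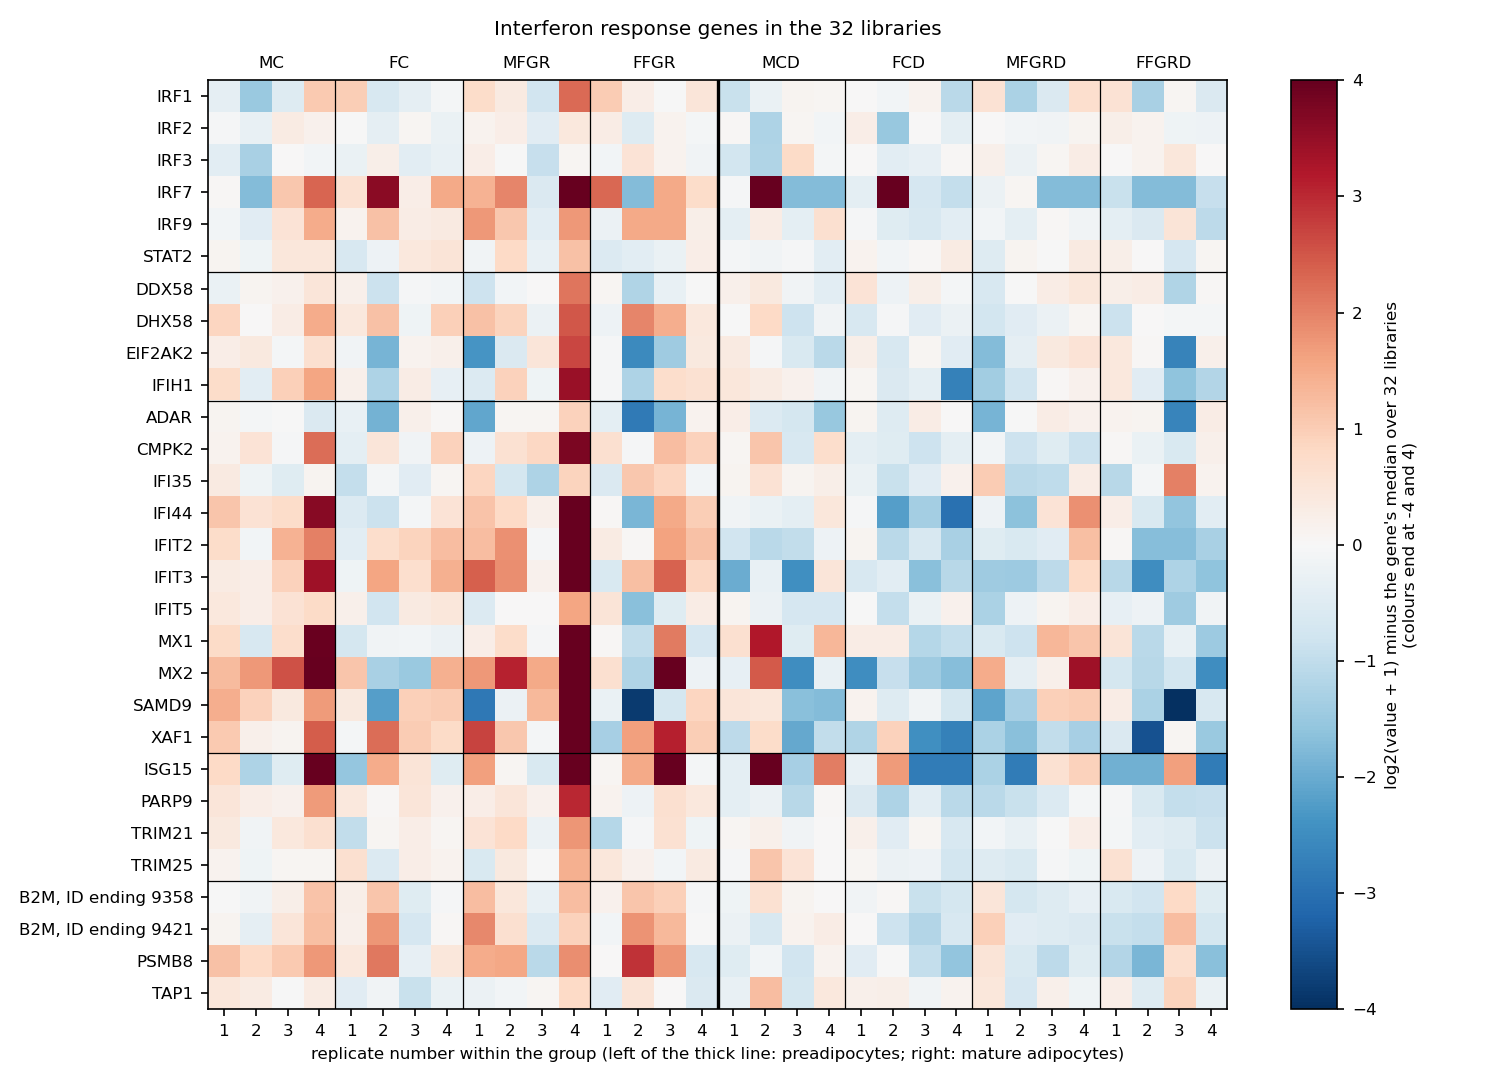
Heatmap of the 29 interferon response genes (rows, ordered by role) in the 32 libraries (columns, preadipocyte groups on the left and adipocyte groups on the right), as log2(value + 1) minus the gene's median over all libraries. The columns of MFGR replicate 4 and MC replicate 4 are high over most rows, and the rows of IFIT3, IFIT2, PARP9 and PSMB8 are lower on the right.

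The first comparison asked what differentiation did to these genes, as the mean difference of the 4 pairs of groups, 16 adipocyte against 16 preadipocyte libraries. Differences were tested with limma on log2(gene sum + 1) over all 12737 genes, and a gene was called differentially regulated at a Benjamini-Hochberg (BH) adjusted p below 0.05 and a fold change above 1.5. Of the 29 genes, 12 were called and all 12 were lower in adipocytes, 0 higher, whereas 27.2% of all genes were called, 14.8% lower and 12.4% higher. The sign was negative for 24 of the 29 genes, and the median log2 fold change was -0.81 against 0.03 over all genes tested. The genes that fell were 6 of the 11 antiviral effectors, 3 of the 4 antigen processing genes, and 1 gene in each of the 3 other groups. In whole populations of cells, a smaller share of expressing cells and less RNA per cell cannot be told apart. Without MFGR replicate 4 and MC replicate 4, 9 of the 12 genes were called and all 9 were lower, against 25% of all genes.

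Among the antiviral effectors, 2 of the 3 IFIT genes, whose products bind foreign RNA and stop its translation, fell. IFIT3 (ENSOARG00020008812, chromosome 22, 12759569 to 12769373, Oar_rambouillet_v1.0) ran from 51.3 to 3548 normalized reads in the preadipocytes (median 166) and from 13.3 to 137 in the adipocytes (median 34.3). The log2 fold change was -2.49 (SE 0.430, n = 16 and 16, limma, BH-adjusted p = 4.96e-05), and the adipocyte library was lower than the preadipocyte library of the same number in 16 of 16 cases. Such tallies by number are a description, since in FFGR the numbers did not pair the libraries. IFIT2 (chromosome 22, 12744890 to 12751240) had medians of 99.6 and 28.96 normalized reads and ranges of 35.7 to 1792 and 14.1 to 112. It fell by 1.79 on the log2 scale (SE 0.359, limma, BH-adjusted p = 0.000287), and was lower in 15 of 16 same-number pairs. IFIT5, the third gene of this cluster, which lies at 12801849 to 12810101 of the same chromosome, was lower in 14 of 16 pairs, but its log2 fold change of -0.48 (limma, BH-adjusted p = 0.103) was not called.

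XAF1, an interferon-induced gene that promotes cell death, fell from a preadipocyte median of 21.9 normalized reads (3.49 to 200.5) to an adipocyte median of 3.74 (0 to 20.1). Its log2 fold change was -2.47 (SE 0.475, limma, BH-adjusted p = 0.000181). MX2 fell from a median of 14.4 (0.996 to 10271) to 2.36 (0 to 56.9), with a log2 fold change of -2.56 (SE 0.787, limma, BH-adjusted p = 0.0126), the widest error among the genes called. Both genes were near the limit of counting in many adipocyte libraries, so that their fold changes depend on the pseudocount of 1. Without the 2 libraries the log2 fold change of MX2 was -1.68 and that of XAF1 was -2.17, and both were still called (limma, BH-adjusted p = 0.0220 and 0.000791).

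Both remaining effectors that were called changed less. IFI44 ran from 2.80 to 786 normalized reads in the preadipocytes (median 20.2) and from 0.708 to 46.6 in the adipocytes (median 9.80), a log2 fold change of -1.41 (SE 0.479, limma, BH-adjusted p = 0.0231). Its call was lost without the 2 libraries (log2 fold change -0.91, limma, BH-adjusted p = 0.0573). The call was also lost without the 9 libraries of low span slope (-1.51, limma, BH-adjusted p = 0.0600). CMPK2, a mitochondrial nucleotide kinase gene, had medians of 41.0 and 20.6 and fell by 0.95 on the log2 scale (SE 0.293, limma, BH-adjusted p = 0.0131).

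The other 5 effectors did not pass the test. MX1 had almost equal medians of 472 normalized reads in preadipocytes (237 to 26050) and 479 in adipocytes (172 to 4366). Its log2 fold change of -0.56 (95% interval -1.60 to 0.48) became 0.01 without the 2 libraries. SAMD9, a translation-blocking antiviral gene, was at -0.91 (interval -2.11 to 0.30). It was called without the 9 libraries of low span slope (-1.30, limma, BH-adjusted p = 0.0311), but not without the 2 libraries (-0.54, limma, BH-adjusted p = 0.513). ADAR, which edits double-stranded RNA, was at 0.14 (-0.56 to 0.84) and IFI35 was at 0.02 (-0.55 to 0.59). MX1 and MX2 are neighbours on chromosome 1 (284883652 to 284913084 and 284814641 to 284870733), and their difference in response was not tested.

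PARP9, an ADP-ribosyltransferase that works with a ubiquitin ligase in interferon signalling (ENSOARG00020009317, chromosome 1, 205024695 to 205054609), was the gene of the ISG15 and ubiquitin group that fell. It ran from 122 to 1139 normalized reads in the preadipocytes (median 180) and from 59.1 to 147 in the adipocytes (median 93.2). Its log2 fold change was -1.17 (SE 0.224, limma, BH-adjusted p = 0.000175) and its adipocyte library was lower in 16 of 16 same-number pairs. ISG15 itself had a log2 fold change of -1.51 with a wide 95% interval of -3.13 to 0.12 (limma, BH-adjusted p = 0.152), and was lower in 12 of 16 pairs. The ubiquitin ligase genes TRIM21 and TRIM25 were at -0.35 and -0.25 and were not called.

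The antigen processing genes fell apart from TAP1, the peptide transporter. PSMB8, an immunoproteasome subunit (chromosome 20, 8874015 to 8877597), ran from 56.3 to 891 normalized reads in the preadipocytes (median 263) and from 32.9 to 193 in the adipocytes (median 82.1). Its log2 fold change was -1.57 (SE 0.342, limma, BH-adjusted p = 0.000692). TAP1, the next gene on the chromosome (8878598 to 8887548), had medians of 101 and 119 and a log2 fold change of 0.12 (interval -0.25 to 0.50). B2M, the light chain of MHC class I, was present as 2 gene IDs on chromosome 7 (107524680 to 107530879 and 107547120 to 107553264), and how reads were shared between these neighbouring copies is uncertain. The first ID ran from 3522 to 11574 normalized reads in the preadipocytes (median 5755) and from 2652 to 8420 in the adipocytes (median 4117), and the second from 4966 to 29753 (median 10031) and from 3497 to 18613 (median 5418). The ranges overlapped for both, with the adipocyte library lower in 15 of 16 same-number pairs. Their log2 fold changes were -0.63 and -0.85 (SE 0.206 and 0.285, limma, BH-adjusted p = 0.0193 and 0.0216), and neither was called without the 2 libraries (limma, BH-adjusted p = 0.0631 and 0.0552).

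DHX58, which encodes the RNA sensor LGP2, was the sensor gene that fell, from a median of 122 normalized reads (55.7 to 371) to 58.5 (35.6 to 114.5), a log2 fold change of -1.05 (SE 0.241, limma, BH-adjusted p = 0.00117). IFIH1, the gene of the sensor MDA5, was at -0.81 (limma, BH-adjusted p = 0.0682). It was called with the replicate block, which also paired FFGR by number, and after quantile normalization (limma, BH-adjusted p = 0.0417 and 0.0347). It was not called without the 2 libraries (-0.53, limma, BH-adjusted p = 0.186). DDX58, the gene of the sensor RIG-I, had medians of 1163 normalized reads in preadipocytes (512.8 to 5233) and 1305 in adipocytes (520.9 to 1738), so that the stages overlapped, and its log2 fold change was 0.03 (interval -0.42 to 0.49). EIF2AK2, which encodes PKR, was at -0.09 with a 95% interval of -0.90 to 0.72.

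Of the transcription factor genes, IRF9, the DNA-binding subunit of the interferon-activated complex, fell from a median of 490 normalized reads (260 to 1190) to 271 (170 to 558), a log2 fold change of -0.89 (SE 0.230, limma, BH-adjusted p = 0.00354). Its partner STAT2 was at -0.14 (interval -0.45 to 0.17), with medians of 327 and 330. IRF7, the amplifier of interferon production, had medians of 6.89 and 0.775 normalized reads, was at 0 in 2 preadipocyte and 6 adipocyte libraries, and was not called at -1.50 (limma, BH-adjusted p = 0.0771). It was called without the 9 libraries of low span slope (-2.18, limma, BH-adjusted p = 0.00609), but not without the 2 libraries (-1.10, limma, BH-adjusted p = 0.214). IRF1, IRF2 and IRF3 lay between -0.42 and 0.10 and were not called.

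**Figure D3:**
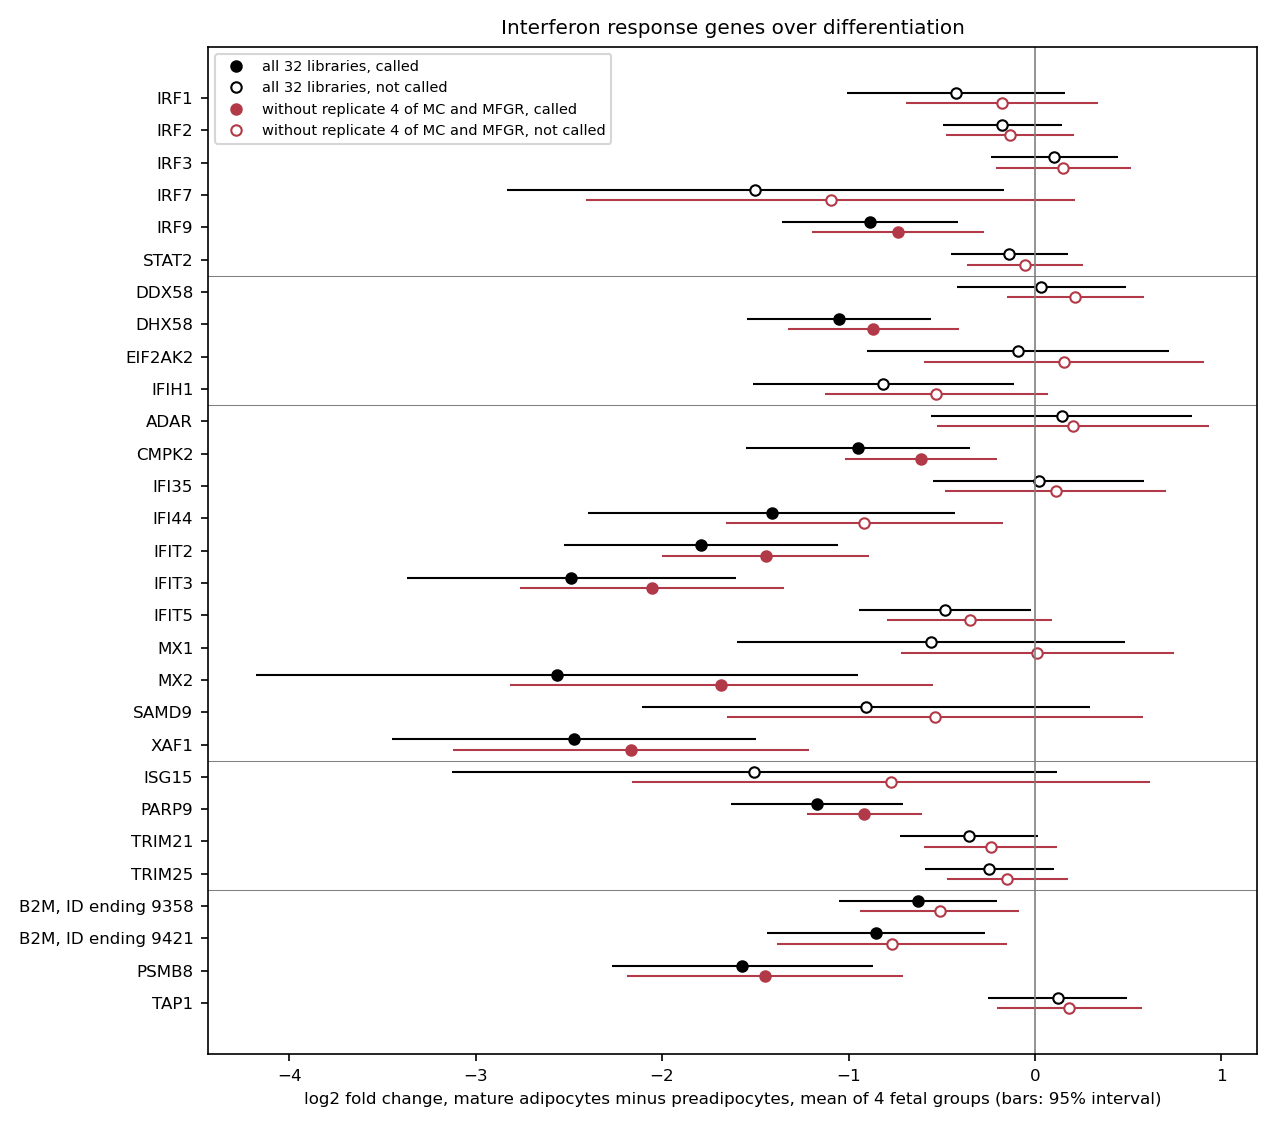
Log2 fold change between adipocytes and preadipocytes with its 95% interval for the 29 interferon response genes, from all 32 libraries and without MFGR replicate 4 and MC replicate 4. The 12 genes called lie between -2.56 and -0.63 with all libraries, and the value of MX1 moves from -0.56 to 0.01 when the 2 libraries are left out.

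Each fetal group was then compared with its own differentiated cells, 4 against 4 libraries. In MFGR, 3 of the 29 genes were called (IFIT3, PARP9 and XAF1), all lower in MFGRD, against 5.13% of all genes (3.1% lower). IFIT3 was at 417.7, 287, 87.4 and 3548 normalized reads in MFGR replicates 1 to 4 and at 28.9, 27.7, 37.3 and 137 in MFGRD. The groups overlapped through MFGR replicate 3 and MFGRD replicate 4, and the log2 fold change was -3.26 (SE 0.860, limma, BH-adjusted p = 0.0232). PARP9 was at 171, 196, 160 and 1139 in MFGR and at 66.5, 76.3, 96.7 and 134 in MFGRD. All 4 adipocyte libraries were below all 4 preadipocyte libraries, with a log2 fold change of -1.62 (SE 0.449, limma, BH-adjusted p = 0.0305). XAF1 was at 72.4, 22.5, 9.73 and 200.5 in MFGR and at 3.65, 2.52, 4.70 and 3.47 in MFGRD, again without overlap, and its log2 fold change was -3.28 (SE 0.951, limma, BH-adjusted p = 0.0397).

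These 3 calls rested on few libraries. Without MFGR replicate 4 and MC replicate 4, none of the 29 genes was called in MFGR by limma, and the log2 fold changes were -2.25, -0.95 and -2.55 (BH-adjusted p = 0.0878, 0.0975 and 0.174). The count was also 0 without MFGR replicate 4 alone and without MFGRD replicate 1, 2 or 3. It was 6 without MFGR replicate 3, the library in which 20 of the 29 genes were the lowest of their group. No share of all genes is given beside these omissions, so they show only that the count was unstable. With the replicate number as a block, which pairs the libraries of MFGR with those of MFGRD, 5 genes were called (9.01% of all genes). DHX58 (log2 fold change -1.41, limma, BH-adjusted p = 0.0428) and IFIT2 (-2.13, BH-adjusted p = 0.0277) were added to the other 3.

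In MC, limma called 0 of the 29 genes against 8.35% of all genes, and 5 had an unadjusted p under 0.05. The smallest p was that of IFIT3, at 97.8, 94.9, 150.7 and 829.9 normalized reads in MC and 19.0, 63.0, 13.6 and 109 in MCD (log2 fold change -2.30, SE 0.860, limma, BH-adjusted p = 0.101). With the replicate block, where same-number libraries also deviated together, IFIT3 (limma, BH-adjusted p = 0.0174) and PARP9 (log2 fold change -1.07, limma, BH-adjusted p = 0.0433) were called, against 14.3% of all genes. Without the 2 libraries the count in MC was again 0 (share of all genes not given). MCD replicate 4 was the only MCD library that overlapped the MC range of IFIT3.

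In FC, limma called 0 of the 29 genes against 2.52% of all genes, with 4 at an unadjusted p under 0.05. PARP9 had the smallest p, at 189, 146, 198 and 158 normalized reads in FC and 93.8, 59.1, 106 and 66.2 in FCD. The groups did not overlap, but the log2 fold change of -1.11 (SE 0.449, limma, BH-adjusted p = 0.203) was not called. It was called when the 2 libraries of the other groups were left out of the shared estimate of the spread (limma, BH-adjusted p = 0.0368, 2.21% of all genes called).

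In FFGR, limma called 0 of the 29 genes against 10.3% of all genes, with 6 at an unadjusted p under 0.05. IFIT3 was at 51.3, 180, 407 and 140 normalized reads in FFGR and 35.8, 13.3, 32.9 and 24.8 in FFGRD. The groups did not overlap, and the log2 fold change was -2.55 (SE 0.860, limma, BH-adjusted p = 0.0562). Without the 2 libraries IFIT3 and IFIT2 were called (limma, BH-adjusted p = 0.0139 and 0.0167, 9.99% of all genes). The count also moved from 0 to 5 without FFGR replicate 1, to 2 without FFGRD replicate 3 and to 1 without FFGR replicate 4. The share of all genes called was not set beside these omissions, so they show only that the count was unstable.

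Counted without any model, all 4 adipocyte libraries lay below all 4 preadipocyte libraries for 5 of the 29 genes in MC, 3 in FC, 2 in MFGR and 1 in FFGR, and above them for 0. Without replicate 4 of MC and of MFGR, the counts were 5 in MC (13.2% of all genes lower without overlap) and 2 in MFGR (7.69%). With all libraries, 8.7%, 5.13%, 6.4% and 6.58% of all genes tested lay below without overlap in MC, FC, MFGR and FFGR. The shares above without overlap were 7.65%, 4.91%, 5.16% and 5.14%. The counts below in MFGR and FFGR were thus near or under the share over all genes. PARP9 was separated in MC, FC and MFGR, IFIT3 in FC and FFGR, and IRF9 in FC. PSMB8, IFI44, IFIT2 and IFIT5 were separated in MC only, and XAF1 in MFGR only. For PSMB8 the MC libraries were at 274, 211, 252 and 404 normalized reads and the MCD libraries at 85.5, 111, 70.9 and 133.

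**Figure D4:**
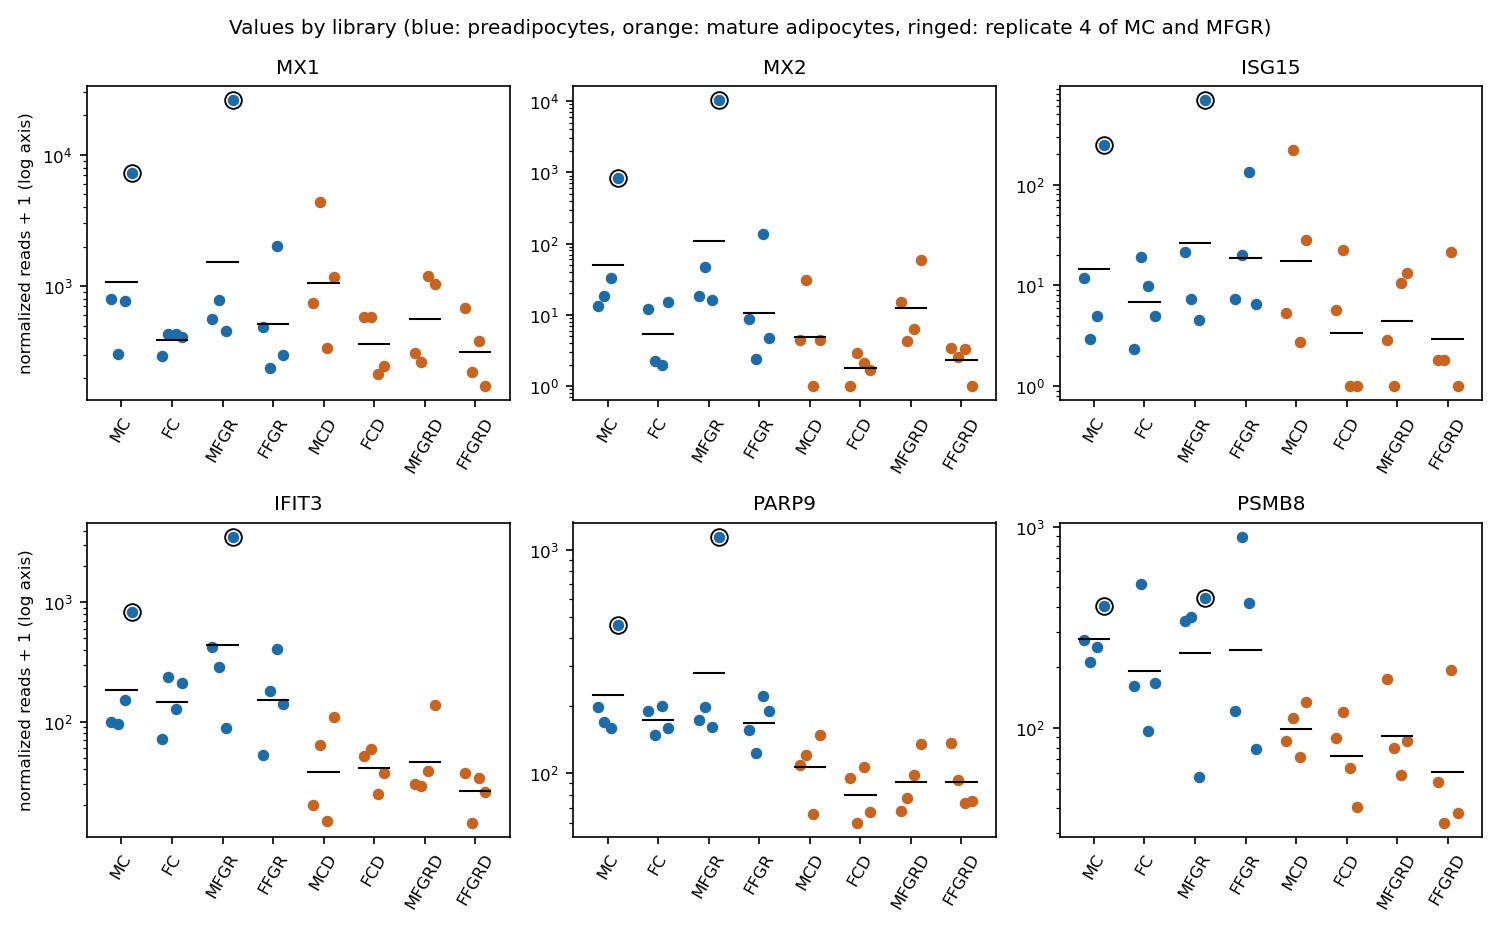
Normalized reads + 1 (log axis) of MX1, MX2, ISG15, IFIT3, PARP9 and PSMB8 in each of the 32 libraries, by group. Black lines are the mean of log2(value + 1) of each group of 4, and rings mark replicate 4 of MC and of MFGR. MX1 reaches 26050 in MFGR replicate 4 against at most 781.9 in the other 3, while PARP9 lies between 59.1 and 147 in the 16 adipocyte libraries.

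The difference among all 8 groups together, by limma's F test, was called for 4 of the 29 genes, against 14% of all genes. They were IFIT3 (limma, BH-adjusted p = 0.00614), IFIT2 (0.0167), PARP9 (0.0183) and XAF1 (0.0276). The count was 3 without the 2 libraries and 8 without MFGR replicate 3, with no share of all genes given beside either.

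The second comparison asked whether FGR changed the genes, with 8 growth-restricted against 8 control libraries at each stage. In preadipocytes limma called 0 of the 29 genes and 0% of all genes, and 0 had an unadjusted p under 0.05. The log2 difference, growth-restricted minus control, was positive for 24 of the 29 genes with a median of 0.33 (-0.02 over all genes), and without the 2 libraries for 19 of 29 with a median of 0.17. IRF1, an interferon-induced transcription factor gene, had the smallest p. It was at 70.9, 32.2, 64.0 and 191 normalized reads in MC, 179.5, 57.5, 71.4 and 86.8 in FC, 152, 117, 52.7 and 438 in MFGR, and 185, 109, 89.8 and 127 in FFGR. The groups overlapped, and the log2 difference was 0.71 (95% interval -0.12 to 1.53, limma, BH-adjusted p = 0.840). In adipocytes limma again called 0 of the 29 and 0% of all genes, with 0 at an unadjusted p under 0.05 and 21 of 29 differences negative (median -0.12), and IRF7 had the smallest p (log2 difference -1.50, interval -3.39 to 0.38, limma, BH-adjusted p = 1.00). That value rested on 2 control libraries, MCD replicate 2 at 58.6 and FCD replicate 2 at 75.1 normalized reads, since the other 14 adipocyte libraries were at 2.52 or less.

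The third comparison was between the sexes, 8 male against 8 female libraries at each stage. In preadipocytes limma called 0 of the 29 genes and 0% of all genes. An unadjusted p under 0.05 was found for 4 of the 29 (MX2, TRIM21, IFI44 and MX1, each with a positive male minus female difference) and for 4.32% of all genes, and 25 of the 29 log2 differences were positive with a median of 0.50. MX2 was at 11.02, 1.27, 0.996 and 13.9 normalized reads in FC and at 7.64, 1.39, 134 and 3.78 in FFGR, against the MC and MFGR values above, and its log2 difference was 3.29 (interval 1.01 to 5.58, limma, BH-adjusted p = 0.846). Both libraries that stood apart were male. Without them the median difference of the 29 genes was 0.08, 16 of 29 were positive, 0 had an unadjusted p under 0.05, and the log2 difference of MX2 was 1.53 (interval -0.13 to 3.19). In adipocytes limma called 0 of the 29 and 0% of all genes, with 0 at an unadjusted p under 0.05 and 24 of 29 differences positive (median 0.23). With the 2 preadipocyte libraries left out of the shared estimate of the spread, 3 of the 29 had an unadjusted p under 0.05, with 0 called by limma. In the fit with all 32 libraries MX2 again had the smallest p in adipocytes and was not called (log2 difference 1.95, interval -0.33 to 4.23, limma, unadjusted p = 0.0912).

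Whether the response to differentiation differed with FGR or sex was tested as an interaction, and limma called 0 of the 29 genes and 0% of all genes in both, with 0 at an unadjusted p under 0.05. The smallest p for FGR was that of ISG15 (log2 difference of responses -2.25, interval -5.50 to 0.99, limma, BH-adjusted p = 0.988) and for sex that of STAT2 (-0.50, interval -1.13 to 0.12, limma, BH-adjusted p = 0.912). For sex, 20 of the 29 log2 differences of responses, male minus female, were negative with a median of -0.31. Without the 2 libraries 20 were positive, with a median of 0.35. The 8 comparisons of single groups within a stage, 4 against 4 libraries for sex or FGR, gave 0 calls among the 29 genes and 0% among all genes.

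The genes differed widely in their spread among libraries of a group. The residual SD on the log2 scale was 2.35 for ISG15 and 2.34 for MX2, larger than that of 99.4% of all genes tested, and 1.90 for IRF7, 1.75 for SAMD9 and 1.52 for MX1. STAT2, IRF2 and IRF3 were the least spread at 0.42, 0.43 and 0.46, with 16.6% to 21.2% of all genes below them. The median of the 29 genes was 0.83 against 0.76 for all genes. By group the median SD of the 29 was 1.28 in MFGR against 0.69 for all genes, and 0.65 in MC against 0.39. In MCD, FC, FCD and FFGRD it was below that of all genes, at 0.45 to 0.71 against 0.53 to 0.79.

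Some of this spread ran with the span slope of the libraries. Between the 9 libraries with a low slope and the other 23, the log2 ratio of the medians was 2.13 for ISG15, 1.49 for XAF1, 1.42 for IRF7 and 1.17 for PSMB8. It was -2.50 for SAMD9, -1.98 for ADAR, -1.95 for EIF2AK2 and -0.92 for IFIT5. ADAR, for instance, was at 147 to 739 normalized reads in the 9 libraries and at 649 to 2005 in the other 23. IFIT2 and CMPK2 differed little, at -0.23 and -0.07. With the slope added to the fit, 13 of the 29 genes were called for differentiation, all lower, the 12 above and IFIH1. How many of all genes that fit called is not given here.

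Transcripts of the 29 genes were tested in the 12 comparisons of 4 against 4 libraries, and 4 calls were made in all (1.07% of all transcript tests). XAF1-201 was at 22.1, 11.97, 11.1 and 55.2 normalized reads in MC and at 0, 0, 0 and 4.64 in MCD (log2 fold change -3.79, limma, BH-adjusted p = 0.0476), where 4.24% of all transcripts were called. It was also called in FFGR (-3.70, limma, BH-adjusted p = 0.0481), where 3 FFGRD libraries were at 0 and 5.07% of all transcripts were called. PARP9-201 was called in MFGR (-1.74, limma, BH-adjusted p = 0.0454, 2.54% of all transcripts called). Without the 2 libraries, 3 transcript calls were made (share of all transcripts not given).

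TRIM25, the ubiquitin ligase gene of the RIG-I pathway (chromosome 11, 59609359 to 59735118), was not called as a gene, but its transcripts differed between the stages. TRIM25-201 was at 432, 444, 342 and 169 normalized reads in FFGR and at 0, 0, 23.5 and 138 in FFGRD (log2 fold change -5.41, limma, BH-adjusted p = 0.0203). Over the 16 preadipocyte libraries it was at 121 or more, and over the adipocyte libraries at 141 or less. TRIM25-204 was above 0 in 15 of the 16 adipocyte libraries, at 105 to 407 in those 15, and at 0 in 11 of the 16 preadipocyte libraries. The shift between these transcripts was not tested as such, and it rests on how the authors' quantification shared reads between overlapping models.

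Other genes of the pathway were tested in the same fit for differentiation. Beside the 14.8% of all genes that were lower and the 12.4% that were higher, of 13 receptor and kinase genes, 1 was higher in adipocytes (JAK1, the kinase shared by the interferon receptors, log2 fold change 0.79, limma, BH-adjusted p = 0.0217) and 2 were lower. Of 10 sensing and adaptor genes, 1 was higher and 4 were lower. IRF8, a transcription factor gene of myeloid cells, rose by 2.38 on the log2 scale (limma, BH-adjusted p = 0.00690), and IRF5 fell by 2.26 (limma, BH-adjusted p = 7.52e-07). Both were low, with medians over the 32 libraries of 5.45 (0 to 216) and 6.28 (0 to 29.7) normalized reads. Their fold changes therefore depend on the pseudocount of 1. Of 34 other interferon-induced genes, 0 were higher and 14 were lower, and the median log2 fold change was -0.52. EPSTI1 fell by 3.02, the monocyte chemokine gene CCL2 by 2.97 and GBP5 by 2.26 on the log2 scale (limma, BH-adjusted p = 7.63e-06, 5.23e-06 and 0.000227). GBP5 was also low, with a median of 8.49 normalized reads over the 32 libraries. Without the 2 libraries the receptor and sensing counts were again 1 higher and 2 lower, and 1 higher and 4 lower, and 13 of the 34 induced genes were lower (median -0.38), against 14% of all genes lower and 11% higher. JAK1, IRF8, IRF5, EPSTI1, CCL2 and GBP5 were each called there too.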

How the data were processed

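The submitters' processing notes and the study's methods name FastQC, Salmon with the Ensembl transcripts of Oar_rambouillet_v1.0, and DESeq2; reads with a mean Phred score below 34 were discarded. The deposited values are normalized reads per transcript, a signal that the authors scaled by DESeq2's median ratio method, so raw counts and depth are not given and no counting interval was computed. The authors' group means of these signal values, their deposited fold change columns (a score) and their deposited p-value columns, which hold the results of their own comparisons, were not used.

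Here 35219 transcripts were summed per gene ID. Genes with 10 or more in at least 4 of 32 libraries were fitted with limma 3.58.1 (trend, R 4.3.3) on log2(sum + 1) with 8 group means, and p-values were adjusted by Benjamini-Hochberg over 12737 genes. Fold changes on this scale understate the change of low genes. The design had foreseen a count test if the values were counts. The fit was tested on simulated data. Tables and figures were made with Python 3.11.15, numpy 2.4.6, pandas 2.3.3 and matplotlib 3.10.9.

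The genes and lists were chosen with earlier results of these data known. Full statistics were given to genes called for differentiation or in the F test and to the smallest p of each comparison without a call, per-library values or ranges to the genes with the largest change or highest level in each role, and other pathway genes were named for the largest changes. IFNAR1 and IFNAR2 were named after their values were seen.

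Deviations of same-number preadipocyte and adipocyte libraries from their group means correlated at 0.162 to 0.615 in MC, 0.303 to 0.508 in FC and 0.393 to 0.671 in MFGR. The numbers were taken to pair libraries there, although MC replicate 2 correlated best with MCD replicate 1. In FFGR 1 pair was at -0.398 and the numbers were not taken to pair, although replicates 3 and 4 matched their own numbers best (0.565 and 0.529). The replicate block for differentiation over all fetal groups still used 16 pair blocks, FFGR included. No library pair was a duplicate (highest correlation 0.972). Alternatives were another pseudocount, quantile normalization, other filters, separate fits, the block, the span slope, library weights and leaving out libraries. RefSeq sequences were not used here.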

Additional observations from a re-analysis of the deposited data

Results flagged for a closer look

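Dixon's 95% critical gap ratio was applied to 232 groups of 4 libraries (29 genes in 8 groups). In 21 cases the highest or lowest library stood apart from the other 3 by more than this ratio. For independent, normally distributed values about 1 in 20, or 11.6, would do so. The 29 genes share the same libraries, so the cases are not independent. The share flagged over all genes is not given, so the count is not a result about the 29 genes.

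FFGRD replicate 3, which had the lowest span slope of the 32 libraries (-0.086), held 6 of them. It was low for DDX58 (520.9 normalized reads against 1232 to 1451 in the other 3), EIF2AK2 (96.1 against 635 to 837), ADAR (168.4 against 1154 to 1292) and IFIT5 (184.8 against 394.9 to 444). It was high for both B2M gene IDs (8420 against 2891 to 3458, and 18613 against 4122 to 4831). MFGRD replicate 1, also of low slope (0.053), was low for ADAR (288.5 against 1044 to 1288) and high for the second B2M ID (15371 against 5291 to 5793). FC replicate 2 (slope -0.031) was low for EIF2AK2 at 169 against 567 to 708.

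MFGR replicate 4 held 4, all high: PARP9 (1139 against 160 to 196), IFI44 (786 against 14.7 to 28.5), MX1 (26050 against 457 to 782) and MX2 (10271 against 14.9 to 45.7). Its same-number adipocyte library MFGRD replicate 4 was high for IFIT2 (112 against 31.0 to 34.9). In that adipocyte library 17 of the 29 genes were the highest of the 4 MFGRD libraries, against 27.3% of all genes tested. The median of the 29 was 0.453 log2 units above the other libraries of its group. MCD replicate 2 at 0.554 and FCD replicate 1 at 0.498 were further above theirs.

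The other 7 were single genes. FC replicate 1 was low for TRIM21 (71.3 against 152 to 173) and for MX1 (290 against 404.8 to 432). MC replicate 2 was low for TRIM25 (379 against 451 to 465), MFGR replicate 3 for PSMB8 (56.3 against 340.6 to 442), FFGRD replicate 1 for DHX58 (35.6 against 62.1 to 66.2) and MCD replicate 2 for IRF2 (149 against 328 to 378). FCD replicate 2 was high for IRF7 (75.1 against 0.708 to 1.52). What set these libraries apart was not tested.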

How the results depend on the processing

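For differentiation over all fetal groups, 12 genes were called; the count was 5 under the study's filter of 20 CPM in 3 libraries, which kept 17 of the 29 genes, 9 without MC replicate 4 and MFGR replicate 4, and 11 to 14 when each library was left out in turn. In MFGR the 3 calls became 1 under that filter, 0 when fitted on their own libraries, 5 with the replicate block, 9 with the span slope as covariate, 15 with library weights, 0 without the 2 libraries, 1 without the 9 of low slope and 0 to 6 when leaving out 1 library. In MC the count of 0 became 1 on its own libraries, 2 with the block, 2 with the slope and 3 with weights; in FC it became 1 with the slope, 2 with weights and 1 without the 2 libraries. In FFGR it became 3 with the block (PSMB8, IFIT2 and IFIT3, though the numbers do not pair there), 4 with the slope, 2 with weights, 2 without the 2 libraries and 0 to 5 leaving out 1. The F test's 4 became 1 under the stricter filter, 10 with the slope, 14 with weights and 3 to 8 leaving out 1. The 4 transcript calls became 2 after quantile normalization, 1 without a filter, 1 under the stricter filter, 1 on own libraries, 7 with the block, 14 with the slope, 14 with weights and 0 to 8 leaving out 1, where 24 omissions moved the count by over 1.5 times. The block gave 13 for differentiation overall and 5 in the F test and changed no other count; every count for sex, FGR and the interactions was 0 under each alternative. The single-gene fold changes followed here were those of genes called and of the smallest p in each comparison without a call. None of these changed sign under an alternative other than leaving out 1 library. Among genes not called for differentiation, MX1 and EIF2AK2 went from -0.56 and -0.09 to 0.01 and 0.16 without the 2 libraries. DDX58 and TAP1 went from 0.03 and 0.12 to -0.04 and -0.07 without the 9 of low slope. After quantile normalization IFI35 went from 0.02 to -0.02. No sex difference in response was called. Their signs went from 9 positive and 20 negative to 20 positive and 9 negative without the 2 libraries. Of the single-gene fold changes, taking each under each alternative other than leaving out 1 library, 188 stayed on their side of the threshold, 7 gained and 16 lost a call; XAF1 in MFGR lost its call in 7 of 8 such omissions, and the smaller B2M change in 5. The causes were not tested. The counts in this section are not set beside the share of all genes called under each alternative. A rise or fall in them is therefore not a result about the 29 genes. The normalized values hide each library's depth, and genes near 0, such as MX2, IRF7 and XAF1, limit what can be seen in adipocytes.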
